A study of Mus musculus with 6 samples.

Results

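The genes described here are 10 cell adhesion molecules of the immunoglobulin superfamily: Icam1, Icam2, Icam5, Vcam1, Madcam1, Alcam, Mcam, Bcam, L1cam and Ncam1. They were taken by symbol from the deposited comparison table and joined to the deposited log2 values, and of several transcript clusters (the array's unit for one transcribed locus) under 1 symbol the brightest on average was kept. All 10 were measured, among 24574 genes in all. RNA from mouse oviductal epithelium (MOE cells; the oviduct is the fallopian tube of the mouse) was read on 6 arrays. The 3 empty vector arrays came from cells stably carrying pCMV-Neo, and the 3 p53 R273H arrays from cells stably carrying a plasmid for p53 R273H, a cancer-associated mutant of the DNA-binding domain. Both kinds of cell were transfected, isolated as colonies under antibiotic and grown with serum, epithelial growth factor, insulin, transferrin and estradiol. RNA came from consecutive passages, so the p-values below cover only passage-to-passage spread. An effect of the plasmid and a difference between the lines cannot be told apart, and whether a line was 1 clone or several is not given in the labels.

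Immunoglobulin-type adhesion molecules are surface glycoproteins whose extracellular part is a row of immunoglobulin folds, and they bind either integrins, matrix proteins or each other on the next cell. Icam1 and Vcam1 are the classic inducible members: inflammatory cytokines acting through NF-kB raise them on endothelium and on many epithelia, where leukocytes hold on to them with integrins. Bcam binds laminin in the basement membrane, Mcam and Alcam are found on epithelia, endothelium and many tumours, and L1cam and Ncam1 are best known from neurons but are also made by epithelial and Mullerian duct derived tumours.

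The 6 arrays had medians between 4.51 and 4.58. The deposited files hold no detection calls. As a guide to dim values, 95% of the group means of 1095 olfactory receptor genes, which are not thought to be active in such cells, lay under 4.42, although probes differ in brightness and this is no detection limit. Of 10 oviductal epithelial markers 8 exceeded that value, the brightest being the keratin Krt18, whose group means were 11.02 (empty vector) and 11.27 (p53 R273H). Epcam and Muc16 stayed under it, at 4.05 and 3.77 with empty vector. Of the 10, 1 rose and 3 fell at a limma adjusted p under 0.05, which 23.7% of all genes passed. The keratin Krt7 rose by 1.80 ± 0.12 (SE). The keratin Krt8 fell by 1.19 ± 0.10, the oviductal glycoprotein Ovgp1 by 1.28 ± 0.12 and the ciliary factor Foxj1 by 0.88 ± 0.11. The part of these markers in the differences of the adhesion molecules was not tested. The probes for Trp53 itself had means of 10.06 and 9.39 and fell by 0.68 ± 0.10 (SE, limma adjusted p = 0.00170), and whether they read the plasmid's transcript was not tested. Fewer cells of a type and less RNA per cell cannot be told apart in such bulk samples.

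Icam1 and Vcam1 were both almost 12-fold lower in the p53 R273H line, Bcam was 2.56-fold lower and L1cam 1.86-fold lower, while Alcam was 2.57-fold higher and Ncam1 1.41-fold higher. Icam2, Icam5, Madcam1 and Mcam did not pass the test. With limma and Benjamini-Hochberg adjustment over all genes, 6 of the 10 passed an adjusted p of 0.05, against 23.7% of all genes. Of these 4 fell, against 11.7% of all genes, and 2 rose, against 11.9%. Among the 14838 genes whose higher group mean lay above 4.55, the median of all values, 36.7% passed, and 9 of the 10 adhesion molecules belong to these brighter genes. Icam1, Vcam1, Bcam and Alcam changed at least 2-fold, 4 of 10, against 5.57% of all genes. For 6 of 10 the values of the lines were fully separated, against 38.2% of all genes and 54.7% once genes under the median level were left out. The median log2 difference of the family was -0.31, beside 0.02 for all genes.

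**Figure D1:**
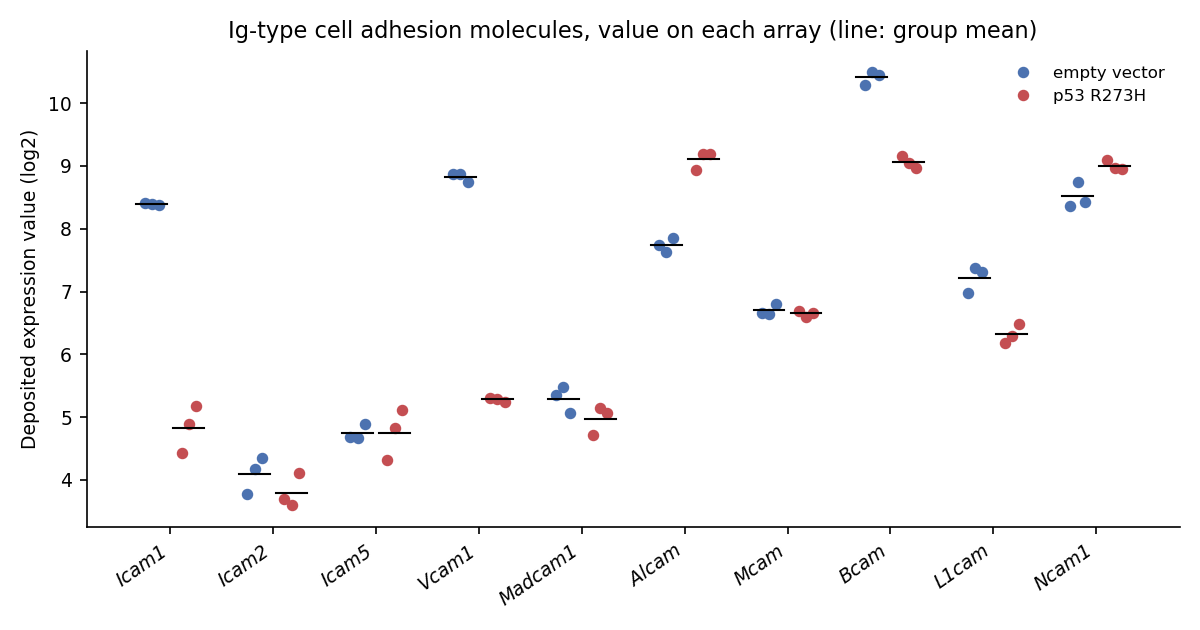
Deposited log2 value (vertical axis) of the 10 adhesion molecules on each array, with empty vector in blue, p53 R273H in red and a line at each group mean. The p53 R273H arrays sit at 4.42 to 5.17 for Icam1 and at 5.25 to 5.31 for Vcam1, where the empty vector arrays are at 8.37 or higher.

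Icam1, the ligand by which epithelium and endothelium hold leukocytes through beta 2 integrins, stood at 8.40, 8.39 and 8.37 with empty vector and at 4.42, 4.90 and 5.17 with p53 R273H (transcript cluster 17515074, chromosome 9). The empty vector arrays lay within a few hundredths of each other, the p53 R273H arrays spread more widely, and the gap between the nearest arrays of the groups was 3.20. Icam1 fell by 3.56 ± 0.18 (SE) on the log2 scale, an 11.8-fold difference with a 95% confidence interval of 8.83-fold to 15.7-fold and a limma adjusted p of 7.24e-06 (n = 3 per group). It ranked 35th among all genes ordered from the largest fall. With p53 R273H, 2 of the 3 arrays still had Icam1 above their own array's median. As the lowest was at 4.42, the guide to dim values, the size of the fall may be less exact than the interval.

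Icam2, a constitutive ligand of the same integrins on endothelium and platelets, was dim in both lines. Its values were 3.77, 4.17 and 4.35 with empty vector and 3.69, 3.60 and 4.10 with p53 R273H, all under 4.42. The groups overlapped, and the difference of -0.30 (95% confidence interval -0.73 to 0.13) did not pass the test (limma adjusted p = 0.318).

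Icam5, or telencephalin, is made by neurons of the forebrain, and its gene lies beside Icam1 on chromosome 9. It stood at 4.68, 4.67 and 4.90 with empty vector and at 4.32, 4.83 and 5.11 with p53 R273H. The groups overlapped, with a difference of 0.00 ± 0.19 (SE), a 95% confidence interval from -0.44 to 0.45 and a limma adjusted p of 0.995. The other transcript cluster with this symbol gave -0.07 ± 0.10.

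Between Icam1 and Icam5 in RefSeq order lies Icam4, an adhesion molecule of red cells, at means of 4.40 and 4.52 and a difference of 0.12 ± 0.11 (SE, limma adjusted p = 0.515). On the other side of Icam1 the mitochondrial ribosomal protein gene Mrpl4 had a difference of 0.10 ± 0.09, and the sphingosine phosphate receptor gene S1pr2 beyond it fell by 0.57 ± 0.11 (limma adjusted p = 0.00605). Mir1900, the third gene after Icam1, had a difference of -0.10 ± 0.21. Of the genes measured within 3 places of Icam1, S1pr2 was thus the only one to pass the test, and its fall was a small part of that of Icam1.

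Promoter windows are shown for Icam1, the largest fall, Bcam, the brightest gene that fell, and Alcam, the largest rise. They were chosen because the Icam1 window holds short motifs that the Bcam and Alcam windows lack. The windows run 5′ to 3′ from 250 bases before to 50 bases after the RefSeq start site in build GRCm38.p6, and capitals mark matches on either strand to 5 motifs. These were an NF-kB type motif spelled GGNNNTTCC, a STAT type motif spelled TTCNNNGAA, an AP-1 motif spelled TGANTCA, the GC box GGGCGG and the TATA box TATAAA. Icam1 is on the plus strand at chr9:21015690-21015989, Bcam on the minus strand at chr7:19770483-19770782 and Alcam on the minus strand at chr16:52453032-52453331.
Icam1: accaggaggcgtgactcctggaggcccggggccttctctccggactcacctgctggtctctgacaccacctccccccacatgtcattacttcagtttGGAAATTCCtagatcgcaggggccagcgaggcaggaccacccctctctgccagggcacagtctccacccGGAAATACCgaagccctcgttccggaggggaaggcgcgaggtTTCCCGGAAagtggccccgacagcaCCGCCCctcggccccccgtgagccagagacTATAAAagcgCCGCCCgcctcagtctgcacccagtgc
Bcam: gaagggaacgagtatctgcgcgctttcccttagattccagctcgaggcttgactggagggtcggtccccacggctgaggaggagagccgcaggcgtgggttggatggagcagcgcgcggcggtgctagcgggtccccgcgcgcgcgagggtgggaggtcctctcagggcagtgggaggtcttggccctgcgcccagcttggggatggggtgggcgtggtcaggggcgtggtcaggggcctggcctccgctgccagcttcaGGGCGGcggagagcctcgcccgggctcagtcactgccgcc
Alcam: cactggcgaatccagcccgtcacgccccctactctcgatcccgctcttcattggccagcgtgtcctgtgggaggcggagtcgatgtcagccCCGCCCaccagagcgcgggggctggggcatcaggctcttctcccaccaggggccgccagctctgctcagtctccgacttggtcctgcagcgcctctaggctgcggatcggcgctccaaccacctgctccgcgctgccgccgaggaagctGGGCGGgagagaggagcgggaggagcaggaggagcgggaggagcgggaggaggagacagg
The Icam1 window held 2 matches to the NF-kB type motif, beginning 153 and 84 bases before the start site, and a match to the STAT type motif beginning 42 bases before it. It also held a match to the TATA box, beginning 14 bases after the start site, and 2 GC boxes, and none of these matches overlapped. The Bcam window held 1 GC box and the Alcam window 2, and neither held any of the other 4 motifs. Of 32851 RefSeq promoter windows of this length, 18.5% held the NF-kB type motif, 8.30% the STAT type motif, 7.81% the AP-1 motif, 35.7% the GC box and 13.6% the TATA box. Among the 7 members with a window, Madcam1 was the only other one with the NF-kB type motif, with 2 matches, and none but Icam1 held the STAT type motif. Windows of Icam2, Vcam1 and Ncam1 were not in the RefSeq table. A match is a run of letters and does not show that a factor binds there.

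Vcam1, which binds the integrins alpha 4 beta 1 and alpha 9 beta 1, stood at 8.87, 8.87 and 8.74 with empty vector and at 5.31, 5.30 and 5.25 with p53 R273H (transcript cluster 17409649, chromosome 3). Both groups were tight, and 3.43 separated their nearest arrays. Vcam1 fell by 3.54 ± 0.09 (SE), an 11.6-fold difference with a 95% confidence interval of 10.1-fold to 13.4-fold and a limma adjusted p of 3.43e-07. It ranked 37th from the largest fall, close to Icam1, although it lies on another chromosome. Its residual values were above the median of each of the p53 R273H arrays. Among the genes within 3 places of Vcam1 only Extl2, a glycosyltransferase gene, was matched by symbol, with a difference of -0.05 ± 0.10.

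Madcam1, the mucosal addressin that guides lymphocytes into gut tissue through alpha 4 beta 7, stood at 5.35, 5.47 and 5.07 with empty vector and at 4.72, 5.14 and 5.07 with p53 R273H. The groups overlapped narrowly. Its difference was -0.32 ± 0.15 (SE), with a 95% confidence interval from -0.68 to 0.03, and did not pass the test (limma adjusted p = 0.191). The interval holds neither a fall as large as that of Vcam1 nor one of 2-fold.

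Bcam, the Lutheran glycoprotein that binds the laminin alpha 5 chain, was the brightest fall, at 10.29, 10.49 and 10.45 with empty vector and 9.15, 9.05 and 8.97 with p53 R273H. The groups were 1.14 apart at their nearest arrays. Bcam fell by 1.35 ± 0.10 (SE), or 2.56-fold with a 95% confidence interval of 2.17-fold to 3.01-fold (limma adjusted p = 5.61e-05).

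Mcam, or CD146, an adhesion molecule of endothelium, smooth muscle and melanoma, stood at 6.66, 6.64 and 6.79 with empty vector and at 6.70, 6.60 and 6.65 with p53 R273H. The groups overlapped, and its difference of -0.05 ± 0.09 (SE) had a narrow 95% confidence interval, from -0.26 to 0.16 (limma adjusted p = 0.764). A change as large as that of Bcam or Alcam lies outside this interval.

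Alcam, or CD166, which binds itself on neighbouring cells and CD6 on T cells, had the largest rise in the family. It stood at 7.74, 7.64 and 7.85 with empty vector and at 8.94, 9.19 and 9.18 with p53 R273H, with 1.09 between the nearest arrays. It rose by 1.36 ± 0.11 (SE), or 2.57-fold with a 95% confidence interval of 2.15-fold to 3.08-fold (limma adjusted p = 8.43e-05), and ranked 296th among all genes ordered from the largest rise.

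L1cam, a neuronal adhesion molecule that is also found at the invading edge of several carcinomas, stood at 6.97, 7.37 and 7.31 with empty vector and at 6.18, 6.30 and 6.49 with p53 R273H. The arrays of the groups were 0.48 apart at the nearest. L1cam fell by 0.90 ± 0.14 (SE), or 1.86-fold with a 95% confidence interval of 1.49-fold to 2.32-fold (limma adjusted p = 0.00226).

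Ncam1, the neural cell adhesion molecule CD56, stood at 8.36, 8.75 and 8.43 with empty vector and at 9.10, 8.96 and 8.95 with p53 R273H. The groups were separated by 0.20, about the spread within the empty vector group (SD 0.21). Ncam1 rose by 0.49 ± 0.12 (SE), or 1.41-fold (limma adjusted p = 0.0238). This call was not firm. Leaving out empty vector replicate 1 or 3 gave a limma adjusted p of 0.0811 or 0.0813. Leaving out p53 R273H replicate 1, 2 or 3 gave 0.0734, 0.0527 or 0.0525. With the mean over both transcript clusters the difference was 0.31 and the limma adjusted p was 0.0640. In a fit over all transcript clusters, the Ncam1 cluster used here had a limma adjusted p of 0.0542. The second transcript cluster of Ncam1 alone had means of 5.67 and 5.79 and a difference of 0.12 ± 0.10.

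For a single gene the exact permutation test (two-sided) cannot go below p = 0.1 with 3 arrays against 3, which is its value for each of the 6 separated members.

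**Figure D2:**
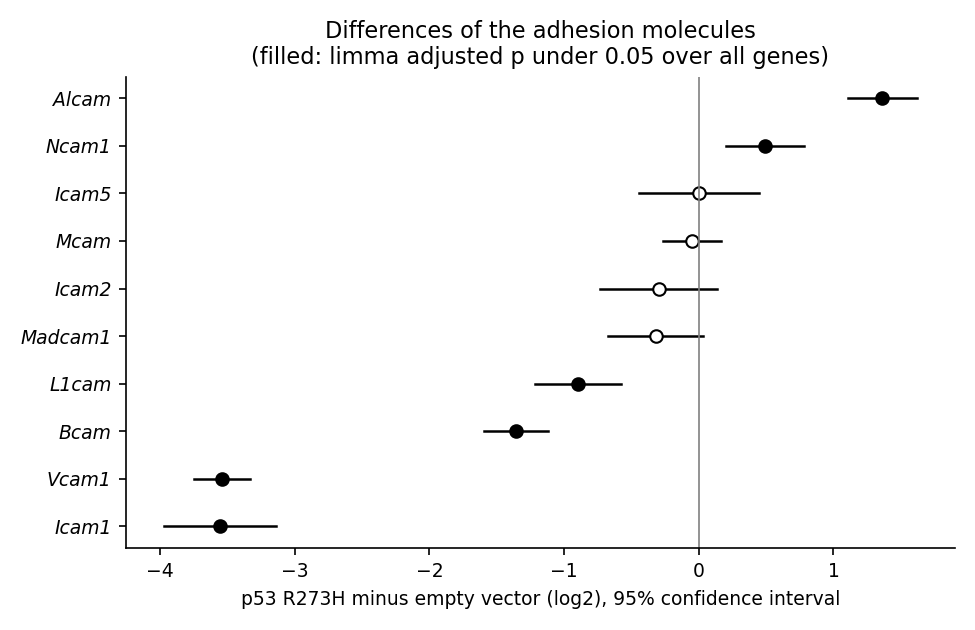
Log2 difference of p53 R273H minus empty vector (horizontal axis) for each adhesion molecule, with its 95% confidence interval and filled points for a limma adjusted p under 0.05. Icam1 and Vcam1 lie near -3.56 and -3.54, and the intervals of Icam2, Icam5, Madcam1 and Mcam include 0.

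**Figure D3:**
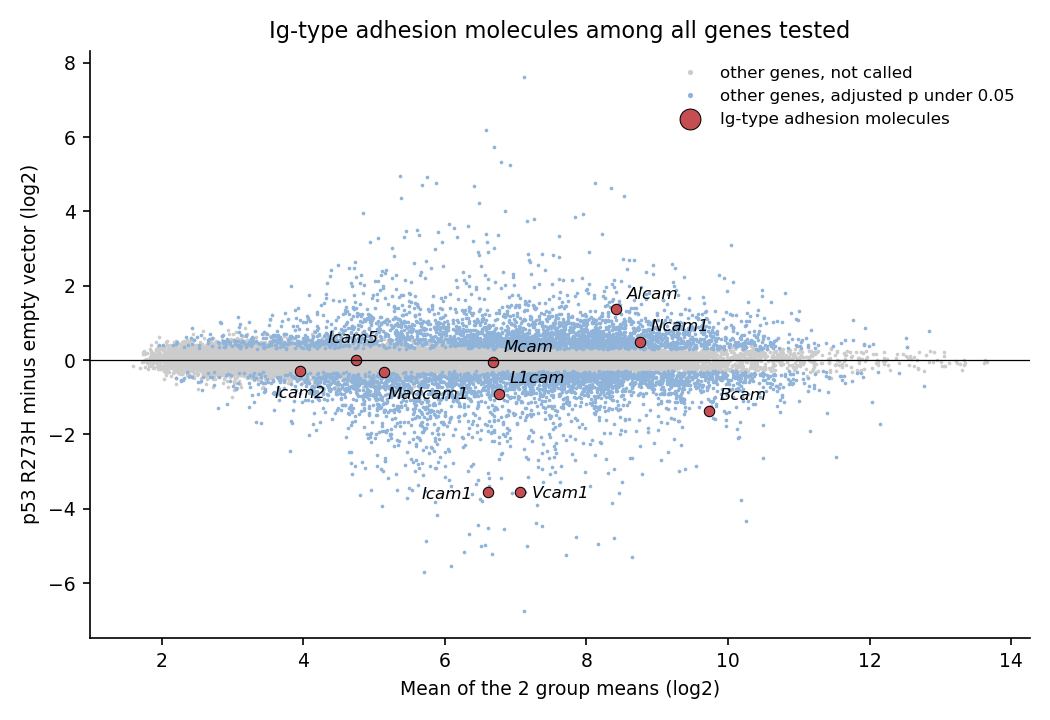
Log2 difference of p53 R273H minus empty vector (vertical axis) against the mean of the group means (horizontal axis) for all 24574 genes, with the adhesion molecules in red and other genes in blue where the adjusted p was under 0.05. Icam1 and Vcam1 lie well below the bulk of the genes, at ranks 35 and 37 from the largest fall, and Icam2 is the dimmest of the family.

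Partners of these molecules were taken from a list of integrin chains, and of 9 chains 2 fell, 0 rose and 7 did not pass. The share that passed was 23.7% over all genes and 36.7% over the genes brighter than the median of all values. Itgb2, the beta 2 chain with which leukocyte integrins bind Icam1 and Icam2, stood at 8.92, 8.94 and 8.86 with empty vector and at 5.09, 5.44 and 5.54 with p53 R273H. It fell by 3.55 ± 0.13 (SE), an 11.7-fold difference (limma adjusted p = 1.59e-06), so the receptor chain and its ligand Icam1 were lower by about the same measured factor. With p53 R273H the means of Itgb2 and Icam1 were 5.35 and 4.83, and olfactory receptor group means reached 6.55. The sizes of both falls, and so their likeness, may therefore be less exact. Of the alpha chains that pair with Itgb2, Itgal had means of 4.45 and 4.41, about the value used here as a guide to dim genes, and Itgam had means of 3.77 and 3.66. Neither passed the test.

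Itgb7, the beta chain of the Madcam1 receptor, stood at 6.53, 6.76 and 6.64 with empty vector and at 4.74, 4.92 and 4.63 with p53 R273H. It fell by 1.88 ± 0.11 (SE), or 3.67-fold (limma adjusted p = 1.84e-05). Itga4, the alpha chain shared by the receptors of Vcam1 and Madcam1, had means of 3.86 and 4.13, and the bright common chain Itgb1 had means of 10.89 and 11.01. Neither passed the test, at differences of 0.27 ± 0.12 and 0.12 ± 0.09.

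Because Itgb2 is best known from leukocytes, 10 leukocyte markers were read beside it. Of these 1 rose, Ptprc at means of 3.50 and 4.10, 1 fell, the lysosomal protein Cd68 at means of 8.05 and 7.32, and 8 did not pass. For each marker list here the share to set beside it is the 23.7% of all genes that passed. Their log2 values summed to between 45.3 and 46.7 on the empty vector arrays and between 46.7 and 46.9 on the p53 R273H arrays. Of the 10, 4 exceeded 4.42 in either group: Cd68, Csf1r at means of 5.91 and 6.23, Tyrobp at 4.53 and 4.87, and Itgal. Cd3e, Lyz2 and Adgre1 (as Emr1) were under 4.42 in both groups. Of 10 endothelial markers 0 rose and 1 fell, Tie1 at means of 4.38 and 4.03, both under 4.42. Of the 10, 3 exceeded 4.42 in either group. The summed log2 values of all 10 ran from 42.0 to 42.3 with empty vector and from 40.3 to 43.3 with p53 R273H. Of 10 neural markers 0 passed the limma threshold, including Rbfox3, the brightest, and 6 exceeded 4.42. Of 10 mesothelial and stromal markers, 5 rose and 2 fell, and their summed log2 values ran from 57.6 to 59.4 with empty vector and from 63.9 to 65.2 with p53 R273H. Acta2, the brightest of these, rose by 1.82 ± 0.10 (SE). The 2 that fell were the mesothelial markers Msln, by 0.92 ± 0.09, and Wt1, by 1.93 ± 0.10. Also rising were the mesothelial Upk3b, by 1.00 ± 0.17, and the stromal Pdgfra, Dcn and Col1a1, by 1.11 ± 0.20, 4.70 ± 0.10 and 0.72 ± 0.14. Dcn was under 4.42 with empty vector, so the size of its rise is not exact. That rise made up most of the shift in the summed values, and the median difference of the 10 was 0.39. The part of all these marker lists in the differences of the adhesion molecules was not tested.

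Of 15 further ligands and partners 5 fell, 3 rose and 7 did not pass, where 23.7% of all genes passed. Their median difference was -0.12. The laminin chain Lama5, to which Bcam binds, stood at 9.01, 9.07 and 9.11 with empty vector and at 6.63, 6.54 and 6.44 with p53 R273H. Lama5 fell by 2.53 ± 0.09 (SE), or 5.76-fold (limma adjusted p = 1.69e-06), so that receptor and ligand were both lower. The laminin chain Lama4, a ligand of Mcam, went the other way, from 3.71, 3.69 and 3.72 with empty vector to 7.12, 7.05 and 7.39 with p53 R273H. Lama4 rose by 3.48 ± 0.11 (limma adjusted p = 8.39e-07) while Mcam itself did not pass the test. As the empty vector arrays had Lama4 under 4.42, its fold is not exact.

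Gdnf, a growth factor that signals through Ncam1 with the co-receptor Gfra1, stood at 7.24, 7.29 and 7.41 with empty vector and at 3.70, 4.39 and 3.73 with p53 R273H. Gdnf fell by 3.37 ± 0.19 (SE, limma adjusted p = 1.13e-05), and Gfra1 had a difference of -0.09 ± 0.13. As the p53 R273H arrays had Gdnf under 4.42, the size of its fall is not exact. Of the enzymes that put polysialic acid on Ncam1, St8sia2 fell by 0.42 ± 0.11 and St8sia4 stayed under 4.42. Itgav, one of the integrin chains reported to bind L1cam, rose by 1.11 ± 0.09, while Itgb3, the beta chain that pairs with it, fell by 0.90 ± 0.10. Cd6, the T cell receptor of Alcam, had means of 4.59 and 4.57.

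**Figure D4:**
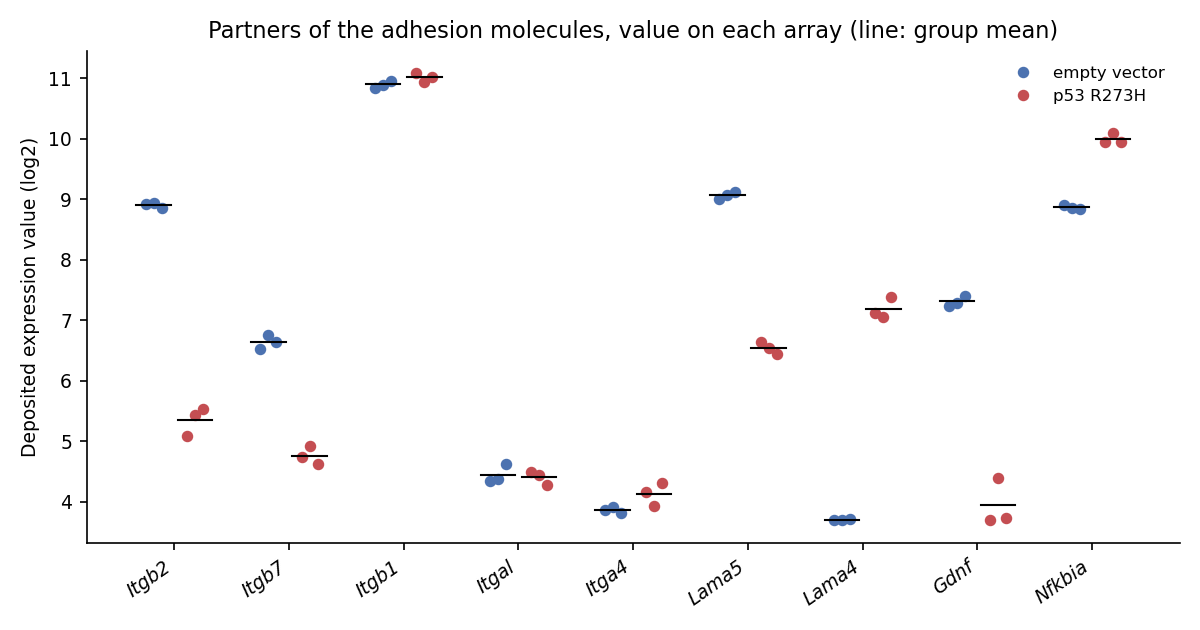
Deposited log2 value (vertical axis) of 9 partner genes on each array, with empty vector in blue, p53 R273H in red and a line at each group mean. Itgb2, Itgb7, Lama5 and Gdnf are lower and Lama4 and Nfkbia higher on every p53 R273H array. Itga4 is also higher on each of them, but barely and at values under 4.42, and did not pass the test.

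Of 24 other adhesion molecules of the immunoglobulin superfamily 2 fell, 3 rose and 19 did not pass, with a median difference of 0.06, where 23.7% of all genes passed. Cxadr, the coxsackievirus and adenovirus receptor of epithelial junctions, fell by 1.23 ± 0.09 (SE, limma adjusted p = 6.10e-05), from a mean of 8.12 to 6.89. Cadm4 fell by 0.97 ± 0.10, and the junctional molecule Jam2 rose by 0.84 ± 0.14. Ceacam1 and the nectin-like Pvr were the other 2 that rose, and they are named after their values were seen. Among relatives of the neural members, Ncam2 had means of 3.86 and 3.90 and Chl1 of 3.18 and 3.26, all under 4.42. Nfasc, of the L1 family, lay above it in both groups, at 4.83 and 4.96, and did not pass the test. The nectins stand in the deposited table under the symbols Pvrl1, Pvrl3 and Pvrl4, and Nectin2 was not matched.

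The proteases that cut these molecules from the surface, with their regulators, went both ways. Of 11 genes 3 rose, 3 fell and 5 did not pass, with a median difference of 0.01, where 23.7% of all genes passed. The main sheddases Adam10 and Adam17 had differences of 0.08 ± 0.09 and 0.19 ± 0.10 (SE) and did not pass. Without empty vector replicate 1 the list had 3 called genes in place of 6. Mmp14 rose by 0.80 ± 0.09, Mmp9 fell by 1.33 ± 0.17, and Rhbdf2, which brings Adam17 to the surface, fell by 1.13 ± 0.09.

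Of 14 linkers of the cytoplasmic tails to actin and spectrin 3 rose, 3 fell and 8 did not pass, with a median of 0.11. Over all genes 23.7% passed. Ezrin, which anchors Icam1 and other tails to actin and is encoded by Ezr, fell by 0.42 ± 0.09 (SE). That call was lost without empty vector replicate 2, with a limma adjusted p of 0.0506, and the list then had 3 called genes. Among the ankyrins, which anchor L1cam, Ank2 rose by 0.65 ± 0.10 and Ank3 fell by 0.52 ± 0.09.

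Of 21 genes of the cytokine pathways that control Icam1 and Vcam1, receptors, transcription factors and the inhibitor Nfkbia among them, 7 fell, 3 rose and 11 did not pass, with a median difference of -0.15. Over all genes 23.7% passed. Nfkbia, the inhibitor that holds NF-kB in the cytoplasm, rose by 1.13 ± 0.09 (SE, limma adjusted p = 7.90e-05), with values of 8.91, 8.85 and 8.84 against 9.95, 10.08 and 9.95. The NF-kB subunit Rela had a difference of 0.08 ± 0.11 and did not pass (limma adjusted p = 0.700). The subunits Nfkb1, Nfkb2 and Relb, named after their values were seen, fell by 0.61 ± 0.10, by 0.62 ± 0.09 and by 0.51 ± 0.09. The subunit Rel, at -0.15 ± 0.10, did not pass. Also named after their values were seen, Ifngr1, Irf1 and Cebpb fell by 0.88 ± 0.09, by 0.66 ± 0.10 and by 0.42 ± 0.09. In the other direction the receptor gene Tlr4 rose by 0.74 ± 0.14. The tumour necrosis factor receptor gene Tnfrsf1b fell by 1.31 ± 0.16, from a mean of 5.95 to 4.64, while the more widely used Tnfrsf1a was at 8.15 and 8.22. Il1rap, the accessory chain of the interleukin 1 receptor, rose by 0.98 ± 0.10. With the mean over its transcript clusters the rise was 0.45 (limma adjusted p = 0.0261). These genes and the adhesion molecules were read on the same arrays, and whether the former bear on the latter was not tested.

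**Figure D5:**
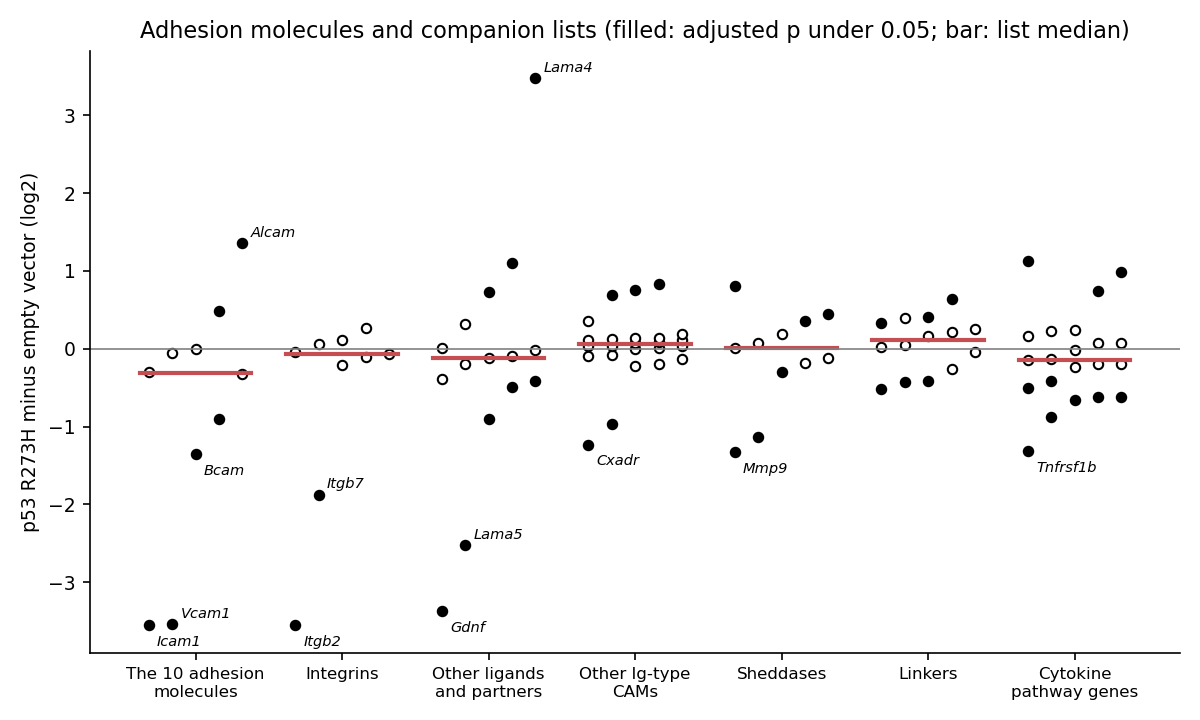
Log2 difference of p53 R273H minus empty vector (vertical axis) for each adhesion molecule and each gene of 6 companion lists, filled where the adjusted p was under 0.05, with a red bar at the list's median. The medians lie between -0.31 for the adhesion molecules and 0.11 for the linkers, and within each list but the integrins called genes lie on both sides of 0.

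Likeness over the 6 arrays was measured by the root mean square difference after each gene was centred on its own mean. Predicted genes, by their symbols, were left out. The genes most like Icam1 were the small nucleolar RNA Snora34 at 0.0648, Itgb2 at 0.0892 and the amino acid transporter Slc6a18 at 0.139. For Vcam1 they were the adhesion receptor Lphn2 at 0.0966, the ATP-gated channel P2rx7 at 0.113 and the ubiquitin ligase Rnf128 at 0.115. With groups as far apart as these, the measure mainly picks genes with a fall of the same size.

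The authors' deposited table gives the same folds, 11.8 lower for Icam1 and 11.6 lower for Vcam1. For the called members its step-up p-values are larger than the limma values, at 0.00366 for Icam1, 3.79e-04 for Vcam1, 0.00346 for Bcam, 0.00561 for Alcam and 0.0377 for L1cam in the authors' deposited table. For Ncam1 the authors' deposited table has a step-up p-value of 0.104. The authors' test and the rows it was adjusted over may differ from those used here, so these p-values are not like for like.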

How the data were processed

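Total RNA from 6 cell pellets, 3 per line, was labelled with biotin for whole-transcript Affymetrix arrays, per the labels' protocols. The deposited matrix holds log2 values for 41345 transcript clusters, and how the authors corrected, summarized and normalized them is not known here. That the scale is log2 follows from the deposited ratio, whose log2 matched the difference of group means within 6.64e-05. The authors' deposited comparison table holds this ratio, a signed fold (a score, negative where the ratio is below 1), and p-values before and after step-up adjustment, per the file headers.

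Symbols came from that table. A spreadsheet had altered 26, which were restored from the gene description. Left out were 145 transcript clusters that name a second gene, and since descriptions are cut off, more may do so. The brightest transcript cluster stood for each of 1616 genes with several, which left 24574 genes. The test was limma 3.58.1 under R 4.3.3 (lmFit, eBayes, no covariates, two-sided, Benjamini-Hochberg over all genes, threshold 0.05), and its script was tested on simulated data. The number of arrays limits the precision.

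The adhesion molecules, the 6 companion lists and the 5 marker lists were chosen with earlier results of these data known. Of 144 listed genes 143 were measured, 8 under another symbol. The genes named are all members, the 3 largest called changes of each companion list and the largest in its lesser direction, Nfkbia, Rela, Icam4, genes within 3 places of Icam1 and Vcam1 in RefSeq order, the 3 most like each of them, and the brightest of each marker list. Any other gene was named after its values were seen. Promoter windows are RefSeq's, build GRCm38.p6. The deposited files name no build, so gene coordinates are not given.

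The 14 alternatives were quantile normalization, centring on array medians, leaving out dim genes below the 30th percentile or below the median, averaging a gene's transcript clusters, a trended and robust variance, no moderation, the replicate number as a block, and leaving out each of the 6 arrays.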

Additional observations from a re-analysis of the deposited data

How the results depend on the processing

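Under 14 alternatives Icam1, Vcam1, Alcam, L1cam and Bcam kept their direction and passed the threshold each time, with log2 differences from -3.73 to -3.35 for Icam1, from -3.58 to -3.50 for Vcam1, from 1.31 to 1.45 for Alcam, from -1.02 to -0.82 for L1cam and from -1.42 to -1.31 for Bcam. Their largest adjusted p was 0.0268, for L1cam in the unmoderated linear model. Ncam1 kept its direction and passed in 7 of 14, with differences from 0.31 to 0.61 and an adjusted p of 0.0781 in the unmoderated model. Icam2, Madcam1 and Mcam stayed below 0 and did not pass in any alternative that tested them; the filter at the median left out Icam2. Icam5 did not pass in any and its difference turned sign, to -0.0332 with the mean over transcript clusters, and ran from -0.18 to 0.22 when single arrays were left out. With the replicate block 6 members passed, as in the fit without it, and 4928 genes passed in all against 5816. Deviations of same-numbered arrays from their group means correlated at -0.07, 0.01 and 0.00, and the block changed no member's call. With 3 arrays per group, these values cannot tell whether same-numbered arrays shared a passage or a day. Over all alternatives 4525 to 6953 genes passed, and members that passed numbered 5 or 6. Members whose groups were separated numbered 6 or 7, a count whose alternatives were added after seeing the data. Among the companion genes, the signs of Cdh5 and Rela also turned when single arrays were left out, with ranges from -0.0335 to 0.20 and from -0.00845 to 0.15, and neither passed the threshold. Krt18, at 0.25, passed with the filter at the median (adjusted p = 0.0460) and with a trended variance. Called linkers numbered 10 with a trended and robust variance and 3 without empty vector replicate 2, and called sheddases 3 without empty vector replicate 1, against 6 in each list. The cause of these shifts was not tested. The files give no detection calls, so differences of dim genes such as Icam2 may not be detectable here.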
